A study of Mus musculus with 14 samples.

Results

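The B cell transcripts described here are 7 genes, Cd79a, Cd79b, Ms4a1, Ighm, Pax5, Ebf1 and Bank1, chosen by name from the 43432 genes of the deposited table. All 7 were found in it, and all 7 passed the filter on low values. Their levels come from RNA-seq of 14 libraries of sorted lung cells positive for SiglecF and CD11c, a gate that holds alveolar macrophages, and the mice were 129S1 males of 10 to 12 weeks. Cells high and low for MHC class II (MHCII) were taken 2 and 4 weeks after intratracheal bleomycin, a DNA-damaging drug that injures the lung and leads to fibrosis (labelled dose 3 U/k), with 3 libraries in each of these 4 groups. MHCII-low cells of mice given water were the controls, with 2 libraries labelled as replicates 1 and 3. MHCII-high cells of water-treated mice were not analysed here. The labels name no genetic change in any group and do not say how many animals went into a library, so p-values measure the spread between these libraries, which may be technical.

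The B cell receptor is a membrane immunoglobulin, whose mu heavy chain is encoded by Ighm, held in a complex with the signalling pair Cd79a and Cd79b. Pax5 and Ebf1 are the transcription factors that specify and keep the B lineage, and Cd79a is a textbook target of both. Ms4a1 encodes CD20, a membrane protein of mature B cells, and Bank1 encodes a scaffold that links the receptor to calcium release. B cells themselves carry MHCII and present antigen with it, but most do not carry SiglecF. In sorted bulk samples like these, fewer B cells and less RNA per cell cannot be told apart.

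Promoters are shown where they lie outside annotated gene bodies, since all the members rose in the same comparison. Of the 7 members, 4 (Cd79a, Pax5, Ebf1 and Bank1) matched the RefSeq promoter table of build GRCm38.p6, with 5 promoters in all. No entry was matched for Cd79b, Ms4a1 and Ighm. The lines give sequence upstream of the RefSeq start, 5′ to 3′ on the gene's strand, in lower case with each complete E box, the letters CANNTG bound by basic helix-loop-helix factors, in capitals.
Cd79a, chr7:24897247-24897380, forward strand: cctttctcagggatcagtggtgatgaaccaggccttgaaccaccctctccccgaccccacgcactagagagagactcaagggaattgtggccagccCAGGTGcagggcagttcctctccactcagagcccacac
Pax5, chr4:44710695-44710944, reverse strand: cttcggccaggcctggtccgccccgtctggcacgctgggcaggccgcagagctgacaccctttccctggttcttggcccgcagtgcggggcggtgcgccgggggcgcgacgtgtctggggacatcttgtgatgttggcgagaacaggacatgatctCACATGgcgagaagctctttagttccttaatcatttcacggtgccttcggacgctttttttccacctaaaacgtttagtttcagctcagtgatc
Bank1, chr3:136326142-136326316, reverse strand: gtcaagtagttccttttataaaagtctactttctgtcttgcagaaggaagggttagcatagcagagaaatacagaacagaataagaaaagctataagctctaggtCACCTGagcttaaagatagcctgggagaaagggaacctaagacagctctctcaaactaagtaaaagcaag

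In the full 250-base windows, searched on both strands, an E box began 154 and 117 bases before the start of Cd79a, 94 before that of Pax5, 145 before that of Bank1 and 108 before 1 of the 2 starts of Ebf1. E boxes are common, being present in 66.2% of all 32851 promoters of that length. The palindromic EBF1 motif, the octamer ATTTGCAT and the PU.1 box GAGGAAGT had no match in the 5 windows, and they occur in 0.779%, 1.60% and 2.44% of all promoters. No motif match overlapped another. These are matches of letters, and sites that depart from them, such as EBF1 sites that are not full palindromes, were not searched for. The lack of a match therefore does not show that the promoter of Cd79a, or any other window, holds no EBF1 site. Binding was not measured.

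The libraries held 15106415 to 88059630 recovered reads, and the mitochondrial ribosomal RNAs took 3.12% to 28.99% of them. At 2 weeks that share moved with the groups, at 22.5% to 26.2% in MHCII-high and 3.42% to 18.3% in MHCII-low libraries. Values are normalized counts, the authors' gene counts divided by a factor per library, in which 1 read is worth 0.39 to 2.24 depending on the library. The genes of the sort markers were found in every library, but not all at an even level. Siglecf ran from 3056.4 to 4358.1 in MHCII-high libraries, below its 6460.9 to 9550.6 in MHCII-low and control libraries. Itgax, which encodes CD11c, ran from 25185 to 44133.2 across the 14 libraries. H2-Aa, an MHCII chain, ran from 16282.6 to 38503.3 in MHCII-high and from 127.8 to 1810.4 in MHCII-low and control libraries. Against these levels the B cell transcripts were rare, with 744 to 3732 recovered reads for the 7 members together in MHCII-high libraries. Replicate 1 of the 4-week MHCII-low cells and replicate 3 of the 4-week MHCII-high cells stand apart for single members, and calls and folds that they change are given with and without them.

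The 7 transcripts were higher in MHCII-high than in MHCII-low cells after bleomycin. For the mean of both times all 7 rose, by 3.03 to 5.99 on the log2(normalized counts + 1) scale (limma across all genes with Benjamini-Hochberg adjustment, adjusted p 4.12e-05 to 0.00807), where 5.0% of the 17390 genes tested were called higher. The median change of the members was 4.52, beside 0.02 over all genes tested. At 2 weeks 3 members were called higher (Cd79b, Pax5 and Ebf1), beside 2.29% of all genes, and 0 of the other 4, all of which had an unadjusted limma p under 0.05. At 4 weeks 5 were called (Cd79b, Ms4a1, Pax5, Ebf1 and Bank1), beside 1.96% of all genes. All 7 had an unadjusted limma p under 0.05 at each time. The 3 members called at 2 weeks are also the 3 that passed the filter on low values only through MHCII-high libraries, so that count cannot be read against the share of all genes. They are also among those called at 4 weeks and for the mean of both times, and these counts carry the same limit. The other members called, Ms4a1 and Bank1 at 4 weeks and also Cd79a and Ighm for the mean, met the filter in MHCII-low and control libraries too. With the mitochondrial ribosomal RNA share as a covariate, 3 members were called at 2 weeks, 4 at 4 weeks and 7 for the mean of both. Over all genes, 188 in place of 398 were then called higher at 2 weeks, 267 in place of 341 at 4 weeks and 435 in place of 870 for the mean. Without replicate 1 of the 4-week MHCII-low cells the 4-week count was 5, with Ighm gained and Ebf1 lost, and without replicate 3 of the 4-week MHCII-high cells it was 6. Over all genes, 246 and 304 were called higher at 4 weeks without these libraries. The count for the mean of both times was 7 in both cases.

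**Figure D1:**
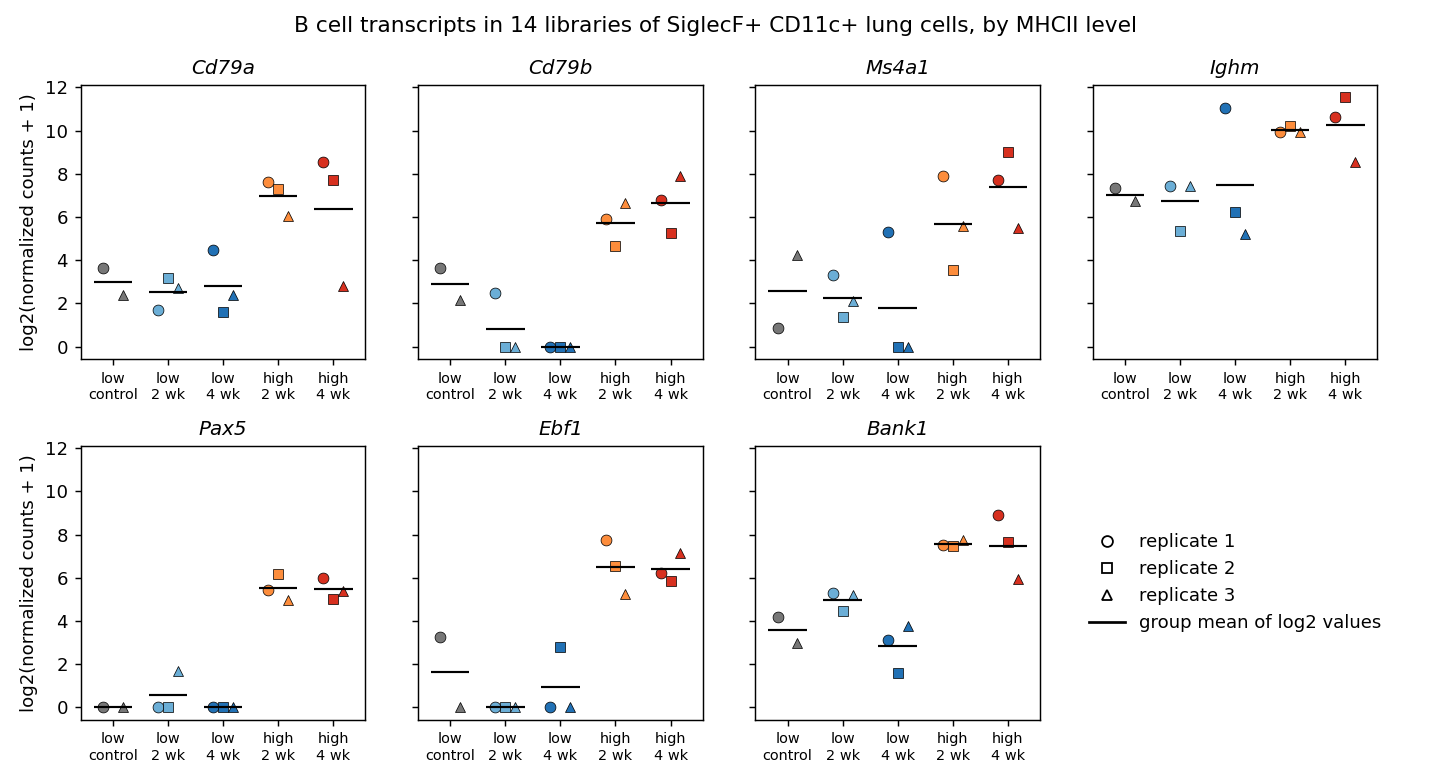
Level of each member in each of the 14 libraries, as log2(normalized counts + 1), by group; circles, squares and triangles are replicates 1, 2 and 3, and bars are group means of the log2 values. The MHCII-high libraries (orange and red) lie above the MHCII-low ones (grey and blue) except for Cd79a in replicate 3 of the 4-week MHCII-high cells and for Ighm in replicate 1 of the 4-week MHCII-low cells; for Ms4a1 the lowest MHCII-high value also lies below 2 values of the low groups.

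Without a model, the lowest MHCII-high library lay above the highest MHCII-low library of the same time for 7 of 7 members at 2 weeks, which was so for 12.9% of all genes tested. At 4 weeks it held for 5 of 7, beside 8.26% of all genes, with overlap for Cd79a and Ighm. Cd79b, Pax5 and Ebf1 are counted at both times and passed the filter only through MHCII-high libraries, so neither count can be read against its share. A value of 0 was found in 20 of the 56 member values of the 8 MHCII-low and control libraries, and in 0 of the 42 of the 6 MHCII-high libraries. Of those 20, 5 were of Cd79b, 7 of Pax5 and 6 of Ebf1, so this count largely restates how these 3 passed the filter.

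**Figure D2:**
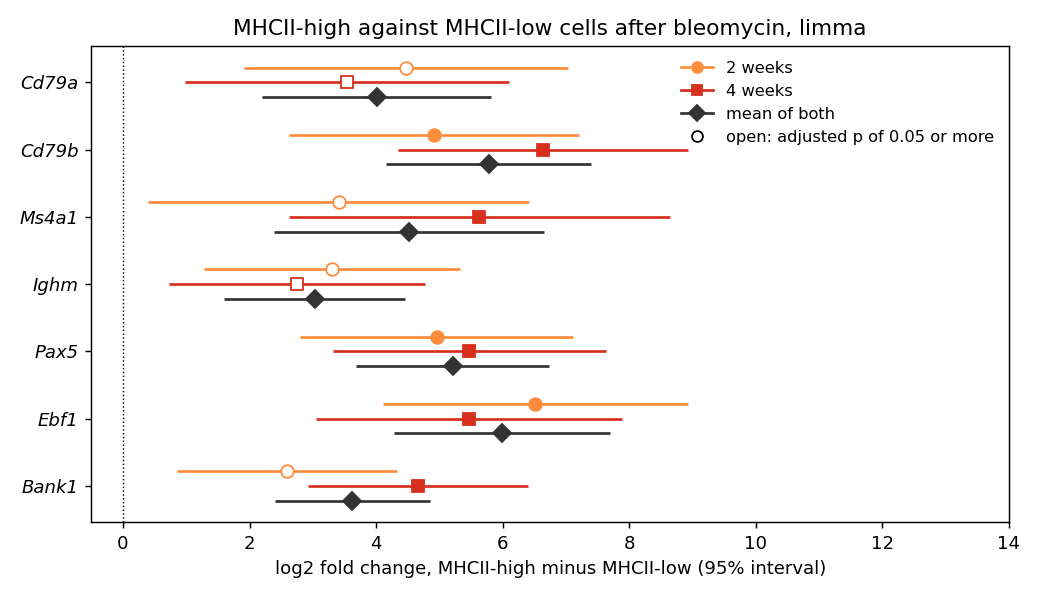
Difference between MHCII-high and MHCII-low cells for each member at 2 weeks, at 4 weeks and for the mean of both, as a log2 fold change with its 95% interval from limma; open symbols have an adjusted p of 0.05 or more. All 21 estimates lie above 0, and the 7 for the mean of both times all pass the threshold.

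Of the signalling pair of the B cell receptor, Cd79b (ENSMUSG00000040592, chromosome 11, 106311341 to 106314762, reverse strand, build mm10) was at 0 in most MHCII-low libraries. It was at 58.1, 24.6 and 99 normalized counts in the MHCII-high libraries at 2 weeks and at 108.2, 37.7 and 236.1 in the 4-week ones. In MHCII-low cells it was at 4.5, 0 and 0 at 2 weeks, at 0 in all 3 libraries at 4 weeks, and at 11.3 and 3.4 in the controls. Every MHCII-high library thus lay above every MHCII-low and control library. The rise was 4.92 ± 1.10 (SE, n = 3 against 3; limma adjusted p 0.0153) at 2 weeks and 6.64 ± 1.10 (adjusted p 0.000972) at 4 weeks on the log2 scale. The 4-week mean was at least 133-fold higher in MHCII-high cells, taking 3 reads over the MHCII-low group as the limit of detection, which covers counting error only, and at least 76.0-fold higher without MHCII-high replicate 3. The 2-week MHCII-low group held 2 reads in all. The 2-week call was lost in 6 of 17 alternatives: without MHCII-low replicate 2 or 3 or MHCII-high replicate 1 or 3 (limma adjusted p 0.0621 to 0.0689), with no filter, and with only the groups compared (0.0643). The 4-week call was lost only in the last of these (0.0566).

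Its partner Cd79a (ENSMUSG00000003379, chromosome 7, 24897381 to 24902197, forward strand) was at 196, 157.3 and 64.3 in the 2-week MHCII-high libraries. At 4 weeks it was at 378.8 and 208.7 in replicates 1 and 2, but at 6.1 in replicate 3. The MHCII-low libraries had 2.2, 8 and 5.5 at 2 weeks and 21.4, 2 and 4.3 at 4 weeks, and the controls 11.3 and 4.3. Replicate 3 of the 4-week MHCII-high cells therefore sits among the MHCII-low libraries for Cd79a, with 5 reads. The mean was 139 ± 67.7 (SD, n = 3) against 5.23 ± 2.91 at 2 weeks, 26.6-fold, and 198 ± 187 against 9.23 ± 10.6 at 4 weeks, 21.4-fold. The 4-week fold was 62.8 without MHCII-low replicate 1 and 11.6 without MHCII-high replicate 1. The log2 difference missed the threshold at 2 weeks (4.47 ± 1.23, limma adjusted p 0.053) and at 4 weeks (3.54 ± 1.23, adjusted p 0.156), and passed for the mean of both (4.01 ± 0.87, adjusted p 0.0057). Without MHCII-high replicate 3 the 4-week difference was 5.32 with a limma adjusted p of 0.00577. Cd79a passed in 6 of 17 alternatives at 2 weeks and 3 of 17 at 4 weeks, edgeR on recovered reads (adjusted p 0.0401 and 0.0497) and DESeq2 (0.000509 and 0.00062) among them at both.

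Cd79a and Cd79b encode the 2 chains of a heterodimer, yet their transcripts did not keep a constant proportion. In normalized counts, Cd79a over Cd79b was 3.37, 6.39 and 0.649 in 2-week MHCII-high replicates 1, 2 and 3 and 3.50, 5.54 and 0.0258 in the 4-week ones. Both genes have a similar exon length in the table, 1457 and 1431 bases. The lowest ratio rests on 5 reads of Cd79a against 194 of Cd79b in replicate 3 of the 4-week cells, the library with the highest Cd79b level of all 14. Without it the ratio still ran from 0.649 to 6.39.

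The mu heavy chain gene Ighm (ENSMUSG00000076617, chromosome 12, 113418558 to 113422730, reverse strand) was the most abundant member and the only one at 10 or more in all 14 libraries. Its MHCII-high values were 987.4, 1199.3 and 973.9 at 2 weeks and 1592.1, 2974.7 and 377.3 at 4 weeks. In MHCII-low cells it was at 170, 39.8 and 169.6 at 2 weeks, and at 161.3 and 105 in the controls. At 4 weeks, replicate 1 of the MHCII-low cells was at 2126.7 while replicates 2 and 3 were at 73.5 and 36.2. The 2-week groups do not overlap, with means of 1054 ± 126 and 126 ± 75.1 (SD, n = 3 each), an 8.33-fold difference. At 4 weeks they do, with means of 1648 ± 1300 and 745 ± 1196, a 2.21-fold difference that was 30.0-fold without MHCII-low replicate 1 and 1.32-fold without MHCII-high replicate 2. The log2 difference was 3.31 ± 0.97 at 2 weeks (limma adjusted p 0.0723), 2.75 ± 0.97 at 4 weeks (adjusted p 0.166) and 3.03 ± 0.69 for the mean of both (adjusted p 0.00807). Leaving out that MHCII-low replicate 1 gave 4.53 at 4 weeks with a limma adjusted p of 0.000603. With all libraries, the call for the mean of both times was lost by edgeR (2.03, adjusted p 0.0698), by DESeq2 (2.10, adjusted p 0.0836) and without a filter (limma adjusted p 0.0526).

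The library behind that Ighm value differed from the MHCII-high libraries in its other B cell genes. In replicate 1 of the 4-week MHCII-low cells Ighm made up 96.9% of the summed level of the 7 members, against 41.7% to 74.1% in MHCII-high libraries. Its Cd79b, Pax5 and Ebf1 were at 0, as were Ighd and Igha, and its Igkc was at 28.3. Cd79a at 21.4 and Ms4a1 at 38.6 were the highest of the 8 MHCII-low and control libraries. The T cell gene Cd3e was at 213.5 there, and at 11.7 to 92.4 in the other MHCII-low and control libraries. The same library had the lowest share of mitochondrial ribosomal RNA of the 14, 3.12%. The part of these features in its Ighm value was not tested.

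**Figure D3:**
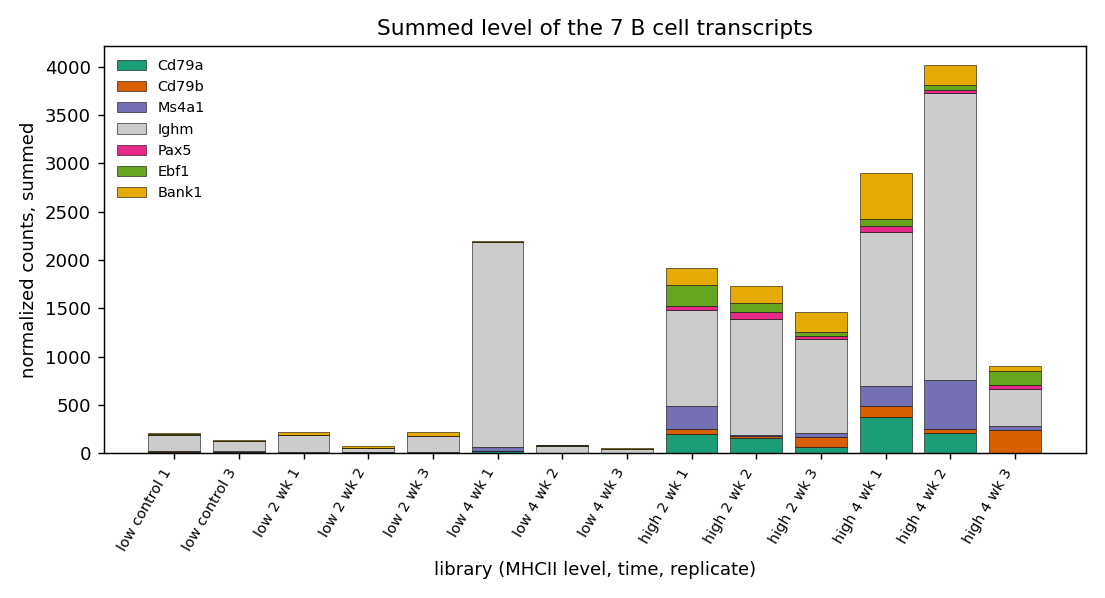
Summed level of the 7 members in each library, in normalized counts, with each member as a coloured segment. Ighm (grey) is the largest segment in every MHCII-high library, and replicate 1 of the 4-week MHCII-low cells reaches 2194.4 almost entirely through it.

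The members summed to 1920.2, 1728.4 and 1463 in MHCII-high cells at 2 weeks and to 2903.2, 4016.6 and 905.5 at 4 weeks. In MHCII-low cells the sums were 223.6, 70.1 and 216.9 at 2 weeks, 2194.4, 83.4 and 53.3 at 4 weeks, and 210.4 and 137.7 in the controls. Apart from that 1 library, each MHCII-high sum lay above every MHCII-low and control sum. Leaving Ighm out of the sum, that library fell to 67.7, while the MHCII-high libraries ran from 489.1 to 1311.1.

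Ms4a1 (ENSMUSG00000024673, chromosome 19, 11249675 to 11266241, reverse strand) had the largest standard error of the members. In MHCII-high cells it was at 237.7, 10.6 and 46.9 at 2 weeks and at 210.2, 508.3 and 43.8 at 4 weeks. In MHCII-low cells it was at 8.9, 1.6 and 3.3 at 2 weeks, at 38.6, 0 and 0 at 4 weeks, and at 0.8 and 18.1 in the controls. The groups do not overlap within a time, but the lowest 2-week MHCII-high value lies below that of control replicate 3. The log2 difference was 3.41 ± 1.45 (limma adjusted p 0.249) at 2 weeks, 5.63 ± 1.45 (adjusted p 0.0399) at 4 weeks and 4.52 ± 1.02 (adjusted p 0.00776) for the mean of both. The 4-week call was made in only 7 of 18 alternatives. It was lost without MHCII-low replicate 2 or 3 or MHCII-high replicate 1 or 2 (limma adjusted p 0.0871 to 0.183), by edgeR (adjusted p 0.168), by DESeq2 (adjusted p 0.152) and in 5 more, with an adjusted p of up to 0.289 with only the groups compared.

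Bank1 (ENSMUSG00000037922, chromosome 3, 136053363 to 136326066, reverse strand) varied little between the 2-week MHCII-high libraries, with 182.7, 175.3 and 211.1. At 4 weeks these had 478.7, 199.3 and 59.6. The MHCII-low libraries had 38, 20.7 and 36.3 at 2 weeks and 7.7, 2 and 12.8 at 4 weeks, and the controls 17.1 and 6.9. All 6 MHCII-high values lay above all 8 others. Its mean was 5.99-fold higher at 2 weeks (log2 difference 2.59 ± 0.83, limma adjusted p 0.108) and 32.8-fold higher at 4 weeks (4.66 ± 0.83, adjusted p 0.00215), and the difference between these was itself not called. The 4-week fold was 17.3 without MHCII-high replicate 1 and 50.7 without MHCII-low replicate 3. The 4-week call was made in 16 of 17 alternatives and lost with only the groups compared (limma adjusted p 0.16).

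The lineage factor Pax5 (ENSMUSG00000014030, chromosome 4, 44524757 to 44710487, reverse strand) was the most even of the members. It was at 41.7, 70.4 and 30.4 in the MHCII-high libraries at 2 weeks and at 62.4, 31.4 and 41.4 in the 4-week ones, a 2.32-fold range. Among the 8 MHCII-low and control libraries it was above 0 in 1, at 2.2 in 2-week replicate 3, which is 4 reads. The 4-week mean was at least 46.9-fold higher in MHCII-high cells, against the same limit of 3 reads. The log2 difference was 4.96 ± 1.04 at 2 weeks (limma adjusted p 0.00915) and 5.47 ± 1.04 at 4 weeks (adjusted p 0.00371). The 2-week call was lost without MHCII-low replicate 1 (adjusted p 0.0531 by limma) or MHCII-high replicate 2 (0.0556), and by edgeR (0.0679).

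Ebf1 (ENSMUSG00000057098, chromosome 11, 44617317 to 45008091, forward strand) was at 216.6, 90.9 and 37.4 in the MHCII-high libraries at 2 weeks and at 72.8, 56.5 and 141.2 in the 4-week ones. It was at 0 in 6 of the 8 MHCII-low and control libraries, with 8.6 in control replicate 1 and 5.9 in replicate 2 of the 4-week MHCII-low cells. The groups are apart in every library, with the lowest MHCII-high value at 37.4. Its mean was at least 111-fold higher at 2 weeks, or 61.8-fold without MHCII-high replicate 1, and the log2 difference was 6.52 ± 1.16 at 2 weeks (limma adjusted p 0.00236) and 5.47 ± 1.16 at 4 weeks (adjusted p 0.0108). The 4-week call was lost without MHCII-low replicate 1 or 3 (limma adjusted p 0.0611 and 0.0629), by edgeR (adjusted p 0.065) and with only the groups compared (limma adjusted p 0.123). Ebf1 is also known from fibroblast and pericyte lineages. Of 7 markers of those cells, Cspg4 alone rose (1.52 ± 0.38, limma adjusted p 0.0156). Their summed level was 2120.1 to 2451.8 in 2-week MHCII-high and 1429.6 to 1787.9 in 2-week MHCII-low libraries, and 545.3 to 1828.1 and 292.4 to 447.9 at 4 weeks, beside 256.8 and 353.7 in the controls. At 2 weeks most of that sum was Cspg4, which was at 915.1 to 974.6 in MHCII-low and at 1541 to 1988.2 in MHCII-high libraries. Their part in the Ebf1 difference was not tested.

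Per kilobase of exon, which allows levels to be compared between genes, the order in 2-week MHCII-high cells was Ighm (mean 559), Cd79a (95.5), Bank1 (58.4), Cd79b (42.3), Pax5 (19.3), Ms4a1 (15.9) and Ebf1 (11.8). At 4 weeks it was Ighm (874), Cd79a (136), Cd79b (89.0), Bank1 (75.7), Ms4a1 (41.1), Pax5 (18.3) and Ebf1 (9.24). Ighm was highest per kilobase in each MHCII-high library, while neighbours further down changed places between replicates. Across the 6 MHCII-high libraries the highest value was 62.1 times the lowest for Cd79a and 48.0 times for Ms4a1. It was 9.60 times for Cd79b, 8.03 for Bank1, 7.88 for Ighm and 5.79 for Ebf1. Single libraries set these ranges: without replicate 3 of the 4-week cells they were 5.89 for Cd79a, 4.40 for Cd79b, 2.73 for Bank1 and 3.05 for Ighm. Without replicate 2 of the 2-week cells that of Ms4a1 was 11.6, and without replicate 1 that of Ebf1 was 3.78.

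None of the members was called in the remaining comparisons. Between 4 and 2 weeks in MHCII-high cells limma called 0 of 7, beside 1.07% of all genes, with adjusted p from 0.652 to 0.993. In MHCII-low cells over the same interval it called 0 of 7, beside 0.857% of all genes. The lowest p there was that of Bank1, at 38, 20.7 and 36.3 and then 7.7, 2 and 12.8, a log2 difference of -2.15 ± 0.83 with an unadjusted p of 0.0177 and a limma adjusted p of 0.44. MHCII-low cells were also set against the water-treated controls, which compares bleomycin with water within the MHCII-low sort. The MHCII level was not constant there. Of 5 MHCII genes limma called 4 higher than in controls at 2 weeks, with a median log2 difference of 2.63, and 1 at 4 weeks, with a median of 1.40. At 2 weeks limma called 0 of 7 members, beside 1.91% of all genes (adjusted p 0.534 to 0.971), and at 4 weeks 0 of 7, beside 0.0460% of all genes (adjusted p 0.76 to 1). Cd79b, at 0 in all 3 libraries at 4 weeks and at 11.3 and 3.4 in the controls, had the lowest p at 4 weeks, with a log2 difference of -2.88 ± 1.23 (unadjusted p 0.0294).

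Whether the gap between MHCII-high and MHCII-low cells changed from 2 to 4 weeks was tested as an interaction. Limma called 0 of 7 members, and 0% of all genes (987 had an unadjusted p under 0.05). For all genes edgeR also called 0, and DESeq2 called 19 higher and 37 lower. The members' standard errors were 1.18 to 2.04 on the log2 scale, so changes of a few-fold between the times were not detectable with these libraries. Across these 5 comparisons edgeR and DESeq2 called 0 members as well, and an unadjusted limma p under 0.05 was found for 2 values in all, those of Bank1 and Cd79b above. Over all genes edgeR called 252 higher and 54 lower in MHCII-low cells at 2 weeks against controls, and 2 and 0 at 4 weeks. Between the times it called 32 and 80 in MHCII-high and 13 and 125 in MHCII-low cells. In the same order DESeq2 called 463 and 197, 59 and 18, 262 and 376, and 79 and 243.

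Other B lineage genes were also higher in MHCII-high cells for the mean of both times. Of 10 further surface receptors 6 rose and 1 fell, with a median log2 difference of 3.15. They include Tnfrsf13c, the receptor for the survival factor BAFF (4.88 ± 0.88, limma adjusted p 0.00109), Fcer2a, the low-affinity IgE receptor CD23 (3.42 ± 0.66, 0.00198), and Cd72, an inhibitory co-receptor (3.03 ± 0.60, 0.00268). The exception was Cd22, an inhibitory lectin of B cells, which was at 8651.2 to 13879.3 in every library and fell by 0.35 on the log2 scale (limma adjusted p 0.0298). Unlike the members, it was as abundant in MHCII-low as in MHCII-high cells. Fcmr, the IgM Fc receptor, was at 0 in all 8 MHCII-low and control libraries and in replicate 3 of the 4-week MHCII-high cells, and at 0.9 to 53.3 in the other 5.

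**Figure D4:**
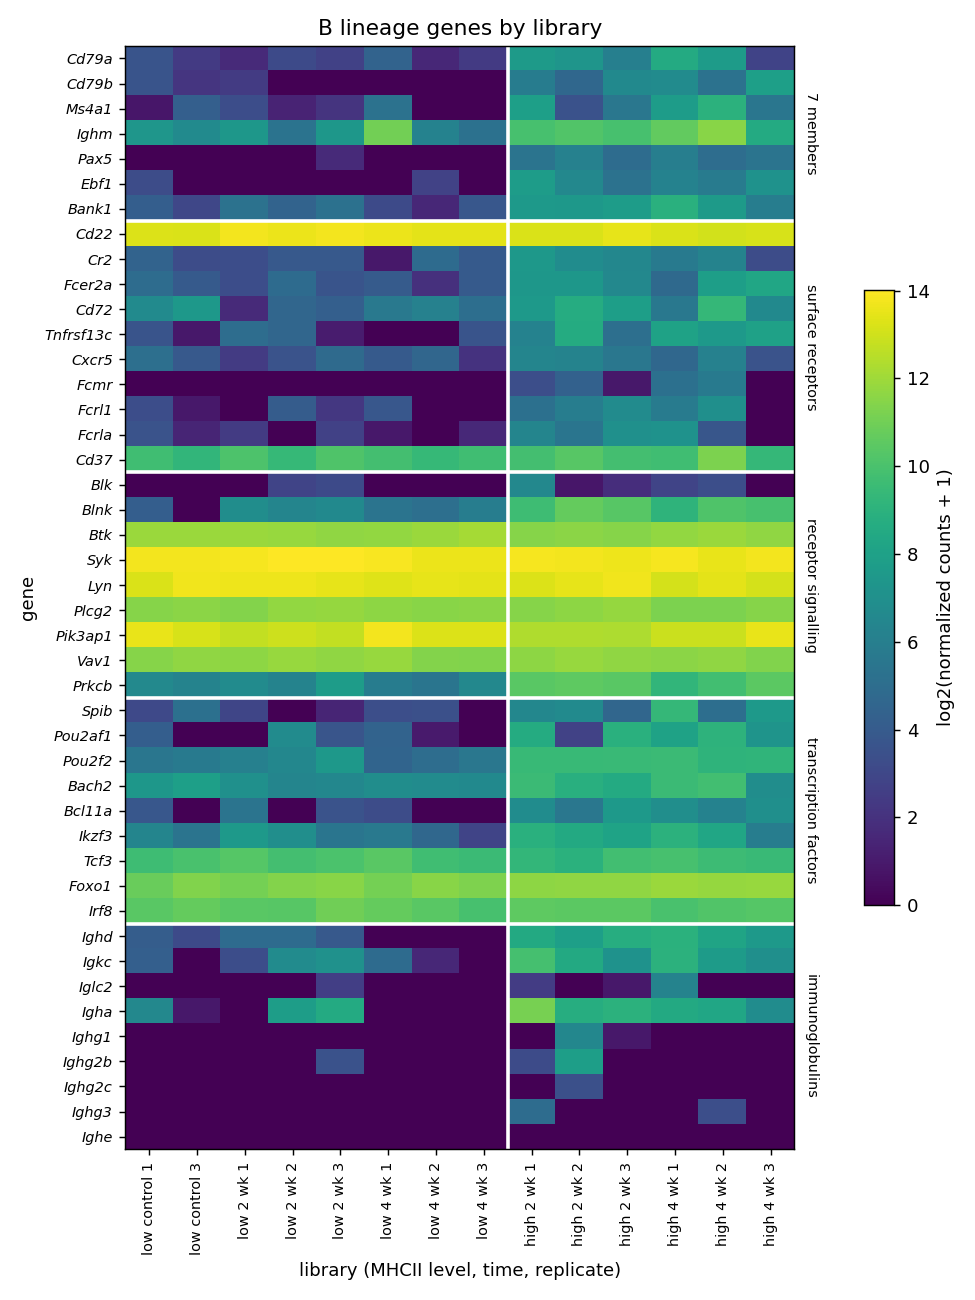
Level of the members and of 4 lists of B lineage genes in each library, as log2(normalized counts + 1) on a colour scale from 0 (dark) to 14 (yellow); the vertical line parts the 8 MHCII-low and control libraries from the 6 MHCII-high ones. Members, most receptors and Ighd, Igkc and Igha brighten to the right of the line, while Cd22, Syk, Lyn and other signalling genes are bright on both sides.

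Of 9 further transcription factors of the B lineage 7 rose, with a median of 2.61. Pou2f2, the octamer-binding factor OCT2, rose by 3.51 ± 0.31 (limma adjusted p 1.22e-07), Spib, an ETS factor, by 4.77 ± 0.87 (0.0012), and Bach2, a repressor that holds off plasma cell fate, by 2.16 ± 0.39 (0.00106). Spib and Bcl11a are also genes of plasmacytoid dendritic cells. Among 9 genes of B cell receptor signalling, 8 could be tested, of which 2 rose, with a median of -0.10. The adaptor Blnk rose by 3.95 ± 0.50 (limma adjusted p 1.78e-05), from 0 to 116.3 in MHCII-low and control libraries to 561.9 to 1683.4 in MHCII-high ones, and the kinase Prkcb by 3.71 ± 0.30 (2.74e-08). Btk, Syk, Lyn, Plcg2, Vav1 and Pik3ap1, which myeloid cells also use, were at 2406.8 or more in every library and were not called. Which cells gave the Blnk and Prkcb reads was not tested.

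The immunoglobulin genes other than Ighm were 9 in the table, of which 4 had enough counts and 3 rose. Ighd, the delta heavy chain of naive B cells, is spliced from the same primary transcript as Ighm. It was at 368.9, 235.9 and 417 in the 2-week and at 499.5, 295 and 189.9 in the 4-week MHCII-high libraries, against 0 to 29.1 in the others (log2 difference 6.03 ± 0.54, limma adjusted p 1.51e-07). Igkc, the kappa light chain, rose by 4.26 ± 0.89 (0.00395), with 124.1 to 936.4 in MHCII-high libraries and 0 to 137.1 in the rest. Igha, the heavy chain of mucosal IgA, rose by 6.03 ± 1.13 (0.00144). It was highest at 2294.3 in replicate 1 of the 2-week MHCII-high cells and ran from 112 to 503.9 in the other 5 MHCII-high libraries. Replicates 2 and 3 of the 2-week MHCII-low cells had 219.7 and 373.9, and all 3 libraries of 4-week MHCII-low cells 0. The gamma chains were at 0 in most libraries, and the highest values, 90.1 for Ighg1 and 229.4 for Ighg2b, were both in replicate 2 of the 2-week MHCII-high cells. Gamma constant regions resemble each other closely, so their reads may have been split between copies.

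Of 6 plasma cell genes tested, Irf4 alone rose (2.63 ± 0.21, limma adjusted p 2.62e-08), from 147.1 to 402.9 in MHCII-low and control libraries to 1246.7 to 2410 in MHCII-high ones. Irf4 is also a gene of dendritic cells. Tnfrsf17, the plasma cell receptor BCMA, was at 0 in all 6 MHCII-high libraries and Mzb1 at 0 in all 8 others and at 0 to 10.4 in the MHCII-high ones. Jchain, which joins IgA and IgM into polymers, was at 202.2, 50.8 and 21.7 in 2-week and at 0, 128.7 and 1.2 in 4-week MHCII-high libraries, against 0 to 29.2 elsewhere (1.64 ± 1.14, limma adjusted p 0.448).

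Markers of other cells that carry MHCII or could enter the gate moved beside the members. Of 7 conventional dendritic cell genes 5 rose, with a median of 3.05, among them Flt3 (6.56 ± 0.81, limma adjusted p 1.29e-05), Fscn1 (5.68 ± 0.79, 5.93e-05) and Ccr7 (5.08 ± 0.74, 0.000116). Their summed level was 865.8 to 1912 in 2-week and 1144.8 to 2114.8 in 4-week MHCII-high libraries. It was 104.1 to 171.9 in 2-week MHCII-low, 76.7 to 185.3 in 4-week MHCII-low and 248.9 to 249.7 in control libraries. Xcr1 and Clec9a, which define 1 subset, were not called. Cd209a, which marks another, rose (3.05 ± 0.85, limma adjusted p 0.031) through the 4-week libraries, and was at 0 in all 6 MHCII-low libraries and in 2 of the 3 MHCII-high libraries at 2 weeks.

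Of 5 plasmacytoid dendritic cell genes tested 2 rose, Tcf4 (1.16 ± 0.15, limma adjusted p 1.78e-05) and Ccr9 (1.74 ± 0.44, 0.0181). The list summed to 1944.4 to 2740.4 in 2-week and 1798.9 to 2645.2 in 4-week MHCII-high libraries, and to 942.7 to 1089.1 in the MHCII-low and control libraries. Most of that sum was Tcf4, at 1618.8 to 2501.1 in MHCII-high and 735.8 to 996.6 in MHCII-low and control libraries. The list's defining gene Siglech was at 29.3, 0 and 7 in 2-week and at 66.6, 9.4 and 0 in 4-week MHCII-high libraries, and above 0 in 1 other library, at 4.7 in control replicate 1 (2.90 ± 1.04, limma adjusted p 0.0972). In the 2 MHCII-high libraries without Siglech, Tcf4 was at 1943.9 and 1618.8, Pax5 at 70.4 and 41.4 and Cd79a at 157.3 and 6.1. The part of plasmacytoid dendritic cells in the members' difference was not tested. Klk1 was at 0 in every library.

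Of 6 alveolar type 2 cell genes 4 rose, including Sftpc (2.62 ± 0.37, limma adjusted p 7.98e-05), Slc34a2 (2.47 ± 0.30, 1.03e-05) and Lamp3 (3.20 ± 0.62, 0.00191), the last of which mature dendritic cells express too. Epithelial cells of this type also carry MHCII. The summed level of the 6 genes was 11001.5 to 16756.1 in 2-week and 8541.9 to 15499.1 in 4-week MHCII-high libraries, 5474.6 to 7658.8 and 5657.8 to 9559.3 in MHCII-low ones, and 5193 to 5206.9 in controls. In MHCII-low and control libraries the largest part of that sum was Abca3, at 3626.9 to 6276.5. Abca3 was at 4224.9 to 5056.7 in MHCII-high libraries. Sftpc was at 39.6 to 1763.1 in MHCII-low and control libraries and at 1568.9 to 6258.3 in MHCII-high ones. The part of dendritic and epithelial cells in the members' difference was not tested.

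T cell genes were called in both directions. Of 8 T cell genes tested, Cd4, which macrophages and dendritic cells can express, rose (2.89 ± 0.53, limma adjusted p 0.00129) and Cd2 fell by 0.65 (0.000303). Cd3e was at 222.3, 36 and 39.1 in 2-week and 2.1, 20.4 and 0 in 4-week MHCII-high libraries, and at 11.7 to 213.5 in the others (-1.58 ± 0.84, adjusted p 0.294). Cd2 was at 5003.6 to 11865.1 in every library and made up most of the list's sum, which was 5308.2 to 8445.6 in MHCII-high and 9038.4 to 12346.3 in MHCII-low and control libraries. Limma called 0 of 4 natural killer cell genes (1 at an unadjusted p under 0.05), 0 of 3 eosinophil genes (0), 0 of 4 neutrophil genes (1) and 0 of 5 endothelial genes (2). By edgeR none of these was called, and by DESeq2 1 endothelial gene was.

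Alveolar macrophage genes were abundant in every library. The 8 alveolar macrophage genes summed to 237064 to 307169 in MHCII-high and 247165 to 430319 in MHCII-low and control libraries, and 6 of them fell. Siglecf fell by 0.99 (limma adjusted p 2.7e-06), Marco, a scavenger receptor, by 1.55 (5.94e-07) and Cidec, a lipid droplet protein, by 1.44 (4.9e-06), while Itgax differed by -0.14 ± 0.11 (adjusted p 0.493). All 5 genes of the MHCII list rose, with a median of 4.76.

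Among the 17390 genes tested, those most like the mean standardized level of the 7 members across the 14 libraries were Plbd1 (Pearson r 0.981), Fgfr1 (0.971), Tlr11 and Nr4a3 (0.962 each), St8sia6 (0.957), Tlr9 and Cxcl13 (0.952 each), Rnf150 (0.951), Cnn2 (0.95) and Sorl1 (0.947). These r values are a description over 14 libraries that fall into an MHCII-high and an MHCII-low set, so any gene that differs strongly between the sets scores high. Tlr9, the receptor for unmethylated DNA, was at 486.8 to 1209.9 in MHCII-high and 2 to 51.8 in the other libraries. Cxcl13, the chemokine that attracts B cells into follicles, was at 130.7, 109.8 and 64.3 in 2-week and 243.5, 469.1 and 63.3 in 4-week MHCII-high libraries, against 0 to 8.3 elsewhere. Closest to Cd79a alone were Pfkfb3 (0.944), Plekha5 (0.931) and the unnamed gene ENSMUSG00000099065 (0.928). The last was at 204.3, 18 and 205.9 in 2-week and 333, 207.1 and 0 in 4-week MHCII-high libraries. Like Cd79a, it was low in replicate 3 of the 4-week cells.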

How the data were processed

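Cells were sorted on SiglecF, CD11c and MHCII, mRNA was isolated on magnetic beads, and libraries were made by whole-transcriptome amplification and transposase tagging without molecular identifiers, per the labels' protocols. The submitters' processing notes name STAR, DESeq2 and build mm10. Per the file headers, the deposited signal values are the authors' normalized counts. Each library's values were whole multiples of 1 step, within the rounding of 0.05, for 99.93% to 100% of them, so whole reads were recovered. Control replicate 1 has the smallest step, close to the rounding. The deposited GC percent and the deposited exon length (unit other, in bases) were used as given by the authors. Coordinates are those of the deposited table, and the 7 members' spans equal those of GENCODE vM21.

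The fit held the 17390 genes that reached 10 normalized counts in 2 or more libraries. It was made on log2(value + 1) by limma 3.58.1 with its trend option (R 4.3.3), over all 14 libraries, with 1 coefficient per group and 8 comparisons. P-values were adjusted by Benjamini-Hochberg within each comparison, with a threshold of 0.05. The log2(value + 1) scale understates changes of low genes. Alternatives included edgeR 4.0.16 and DESeq2 1.42.0 on recovered reads. Folds of means and ranges without single libraries were added after seeing the data. The test was checked on simulated data. Named genes were the members, up to 3 genes per list with the smallest p for the mean of both times, 8 set genes (Igkc, Ighd, Cd3e, Siglech, Flt3, Siglecf, Itgax and H2-Aa) and the 13 most alike. Some genes are not reported here and were left out of the lists. Other genes named were chosen after their values were seen. The members and lists were chosen with earlier results of these data known. Iglc1 and Iglc3, on the immunoglobulin list, had no matching row. The counting strand is not given in the sources used here, and 6 genes that overlap Ms4a1, Pax5 or Ebf1 reached at most 22.9 normalized counts.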

Additional observations from a re-analysis of the deposited data

How the results depend on the processing

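The 21 fold changes of members between MHCII-high and MHCII-low cells kept their sign in all 405 alternative values, of which 29 lost and 15 gained a call. At 2 weeks the count of members called was 3, and 5 with DESeq2, 5 with only the groups compared and 0 with a filter of 5 CPM in 2 libraries. It was 2 whichever library was left out. Over all genes 398 were called higher there, and 750, 277 and 358 with these 3 settings in order. With 1 library of these groups left out it was 180 to 356 genes. At 4 weeks the count of members was 5, but 0 with that filter and 1 with only the groups compared. It was 3 to 6 with 1 library left out, the lowest without MHCII-low replicate 3. Genes called higher there were 341, and 288 with that filter, 52 with only the groups compared and 240 without that replicate. Over all genes, 870 were called higher for the mean of both times, and 767 with that filter. The count of members for that mean was 7, and 2 with that filter, which tests only Ms4a1 and Ighm among the members. It was 7 whichever library was left out, beside 638 to 930 of all genes called higher. Cd79b, Pax5 and Ebf1 are among the 7 and passed the main filter only through MHCII-high libraries. That count can therefore not be read against the share of all genes. The counts of 0 at 2 and 4 weeks with the filter of 5 CPM in 2 libraries have that same limit. Of the members called at those times, it tests only Ms4a1. The cause of the remaining changes was not tested. With a replicate block the 2-week count was 5, the 4-week count 6 and that for the mean 7, beside 388, 346 and 862 genes called higher. Same-numbered libraries correlated by 0.0247 to 0.107 at 2 weeks and 0.0091 to 0.0341 at 4 weeks, and not every library correlated best with its own number, so the numbers are not shown to pair them. In the other 5 comparisons 0 members were called under every alternative run. With only the groups compared, limma called 0 of all genes for the interaction and for MHCII-low cells at 4 weeks against controls. It also called 0 of all genes between the times in MHCII-high cells. In such runs the 0 says nothing about the members. In the same 5 comparisons, 61 of 600 alternative fold changes differed in sign from the main value, other than those of Bank1 and Cd79b given above, so no direction is given for them. Over all genes, the share of calls that were higher was 79.8% at 2 weeks, but 68.8% with edgeR, 64.5% with limma voom and 59.8% with the GC trend removed. For the mean of both it was 69.4%, but 57.6%, 52.3% with voom and 57.2% with TMM-rescaled values. At 10 normalized counts a gene rests on few reads in the shallowest libraries, so single values of members near 0 carry a large counting error.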
